A study of Homo sapiens with 18 samples.

Results

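The genes described here make, move and sense cholesterol: the enzymes of the mevalonate and sterol steps, the sterol regulatory element binding proteins (SREBPs) with their control proteins, the proteins that carry or store cholesterol, and the exporters ABCA1 and ABCG1. They were taken by name as 29 genes, with no threshold on a measured value, from a list written when earlier results of these data were known. Of these, 28 had a probe under their symbol, against 20045 symbols with a probe on the whole array, and 27 were bright enough to test. FDFT1, which makes squalene, is not analysed here, and STARD4, a carrier of cholesterol in the cytosol, lay below the filter on dim probes, with values between 5.99 and 6.63 on the log2 scale on every array.

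The cells were LNCaP, an established human prostate cancer line whose androgen receptor is mutated and whose growth depends on androgen. All groups were kept for 24 h in medium with charcoal-stripped serum, which is depleted of steroids, and each of the 6 groups had 3 arrays. The DMSO group received the vehicle, the DHT group 10 nM dihydrotestosterone, the Flutamide group 1 µM flutamide, and the MJC13 group 30 µM MJC13. The 2 remaining groups received the same dose of DHT together with 1 µM flutamide (DHT + flutamide) or with 30 µM MJC13 (DHT + MJC13). Flutamide is a classic antagonist that competes for the hormone pocket of the receptor, and MJC13 is directed at the surface of the receptor. The concentration of DHT is that of the sample labels, and the study's own text gives a lower one for the arrays, so the dose is not settled. The study states in general that its experiments were repeated, but neither it nor the labels say whether the 3 arrays of a group came from separate cultures, so p-values measure the spread between these samples, which may be technical.

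Cells build cholesterol from acetyl-CoA through mevalonate, isoprenoids, squalene and lanosterol. When sterols in the endoplasmic reticulum are scarce, SCAP escorts SREBPs to the Golgi, where they are cut, and the released fragments raise transcription of the synthesis enzymes; INSIG proteins hold SCAP back when sterols are plentiful. When oxysterols accumulate, liver X receptors induce ABCA1 and ABCG1, which move cholesterol out of the cell, and prostate cancer cells also use cholesterol as a store in ester form and as a source of steroids.

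SREBPs act at promoters together with the CCAAT-binding factor NF-Y and with Sp1, so promoters of members on which the results below turn are shown first, beside that of SREBF2, which encodes the SREBP most closely tied to cholesterol genes. Each is 300 bases in RefSeq (GRCh38.p14), running 5′ to 3′ from 250 bases before the annotated start, and lies at chrX:48521558-48521857 on the plus strand for EBP, chr11:71448344-71448643 on the minus strand for the second start of DHCR7, chr7:155297628-155297927 on the plus strand for INSIG1, chr22:41832855-41833154 on the plus strand for SREBF2 and chr9:104928106-104928405 on the minus strand for ABCA1. Capitals mark CCAAT, the box that NF-Y reads, and CACNCCAC, the core of a sterol regulatory element, on either strand.
EBP: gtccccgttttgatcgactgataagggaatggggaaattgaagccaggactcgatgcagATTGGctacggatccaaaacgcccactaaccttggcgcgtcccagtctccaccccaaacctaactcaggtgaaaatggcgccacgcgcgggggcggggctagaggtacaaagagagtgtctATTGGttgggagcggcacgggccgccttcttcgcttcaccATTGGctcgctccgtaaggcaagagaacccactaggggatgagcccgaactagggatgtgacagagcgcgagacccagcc
DHCR7: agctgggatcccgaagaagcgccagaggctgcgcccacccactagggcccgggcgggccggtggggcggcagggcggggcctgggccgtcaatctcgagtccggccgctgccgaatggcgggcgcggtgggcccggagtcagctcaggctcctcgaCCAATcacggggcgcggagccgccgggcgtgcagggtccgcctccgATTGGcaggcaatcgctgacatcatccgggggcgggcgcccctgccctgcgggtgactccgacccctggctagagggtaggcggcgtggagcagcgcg
INSIG1: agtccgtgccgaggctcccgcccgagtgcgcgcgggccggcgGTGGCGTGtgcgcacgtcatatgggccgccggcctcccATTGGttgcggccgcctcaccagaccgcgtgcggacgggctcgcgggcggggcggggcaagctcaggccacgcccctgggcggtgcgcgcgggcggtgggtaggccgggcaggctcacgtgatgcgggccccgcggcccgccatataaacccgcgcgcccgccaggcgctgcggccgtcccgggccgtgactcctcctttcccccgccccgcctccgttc
SREBF2: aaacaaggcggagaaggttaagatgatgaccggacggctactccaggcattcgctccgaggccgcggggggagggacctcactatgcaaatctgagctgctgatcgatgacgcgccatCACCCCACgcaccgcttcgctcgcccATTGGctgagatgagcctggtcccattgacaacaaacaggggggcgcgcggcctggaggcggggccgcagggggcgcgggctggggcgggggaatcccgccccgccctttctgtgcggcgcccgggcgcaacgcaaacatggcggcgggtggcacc
ABCA1: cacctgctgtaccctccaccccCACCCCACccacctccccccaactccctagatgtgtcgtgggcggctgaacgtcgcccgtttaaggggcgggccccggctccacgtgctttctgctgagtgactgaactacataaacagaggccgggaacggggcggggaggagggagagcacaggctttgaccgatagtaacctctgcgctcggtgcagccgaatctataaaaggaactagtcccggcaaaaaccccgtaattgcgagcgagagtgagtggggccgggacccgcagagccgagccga

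The EBP promoter held 3 CCAAT boxes and the printed window of DHCR7 held 2, whereas the window at the other annotated start of DHCR7 held neither these boxes nor any other motif searched. The ABCA1 promoter held a CACNCCAC core and no CCAAT. INSIG1 and SREBF2 held 1 of each. Promoters were matched by symbol for 25 of the 29 genes, as 32 windows since some genes have several starts, and windows of 1 gene can overlap. CCAAT was found on either strand in 20 of the 32 windows (62.5%) and in 34.6% of all 35116 windows of this length. CACNCCAC was found in 6 windows (18.8%, against 5.87% of all), and GGGCGG, the GC box read by Sp1, in 30 (93.8%, against 45.0%). AGAACA, a half-site of the androgen receptor, was in 1 window (3.12%, against 14.8%). Windows and matches of different motifs may overlap, and a match of letters is not a bound site. Sequence outside the windows was not searched, and the windows compared were not matched in base content. By gene, CCAAT was found for 5 of 6 matched genes of the mevalonate steps, 8 of 9 of the squalene and sterol steps, 2 of 5 of SREBP control, 3 of 4 of transport and storage, and not for ABCA1. CACNCCAC was found for 1 of 6 genes of the mevalonate steps, 1 of 9 of the squalene and sterol steps and 2 of 5 of SREBP control. It was found for 0 of 4 of transport and storage, and for ABCA1. The enzymes with this core were IDI1 and SC5D, while EBP and DHCR7 had none.

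The arrays behaved as a prostate luminal line treated with androgen. All values are on the authors' log2 scale after quantile normalization, so every array has a median of 6.6. All 7 luminal markers with a probe passed the filter on dim probes and 0 of 3 basal markers did, while 4 of 5 stromal, 1 of 3 leukocyte, 2 of 3 endothelial and 1 of 3 neuroendocrine markers passed. That filter kept 28334 of 47223 probes, so passing it says little by itself. The median marker signal was 11.38 for luminal, 6.03 for basal, 6.53 for stromal, 6.28 for leukocyte, 6.42 for endothelial and 6.21 for neuroendocrine markers. Endothelial VWF (9.58) and neuroendocrine ENO2 (10.34) were bright. KLK2, a classic target of the androgen receptor, read 6.60, 6.71 and 6.86 in DMSO and 8.91, 8.78 and 9.18 in DHT. It rose with DHT by 2.23 ± 0.28 (SE) on the log2 scale (adjusted p = 0.00181, limma). In bulk RNA, fewer cells with a transcript and less transcript per cell cannot be told apart.

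Does DHT alter the cholesterol genes? Most synthesis enzymes read higher with DHT than with DMSO and both exporters read lower, but no member passed the adjusted test. With limma, fitted over all 28334 probes that passed the filter, 0 of 27 members had an adjusted p under 0.05, against 0.191% of all probes tested (54 probes, 50 higher and 4 lower). That count depended on single arrays, from 7 without DMSO replicate 1 to 95 without DHT + MJC13 replicate 2, with 0 members called each time. At an unadjusted p under 0.05, 9 members were higher and 2 lower, against 4.86% and 3.42% of all probes. The 3 DHT arrays lay wholly above the 3 DMSO arrays for 10 members and wholly below for 2, against 7.94% and 6.16% of all probes. The median log2 difference was 0.24 over the members and -0.01 over all probes. For a single gene, an exact two-sided permutation of 3 arrays against 3 cannot give a p below 0.1.

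**Figure D1:**
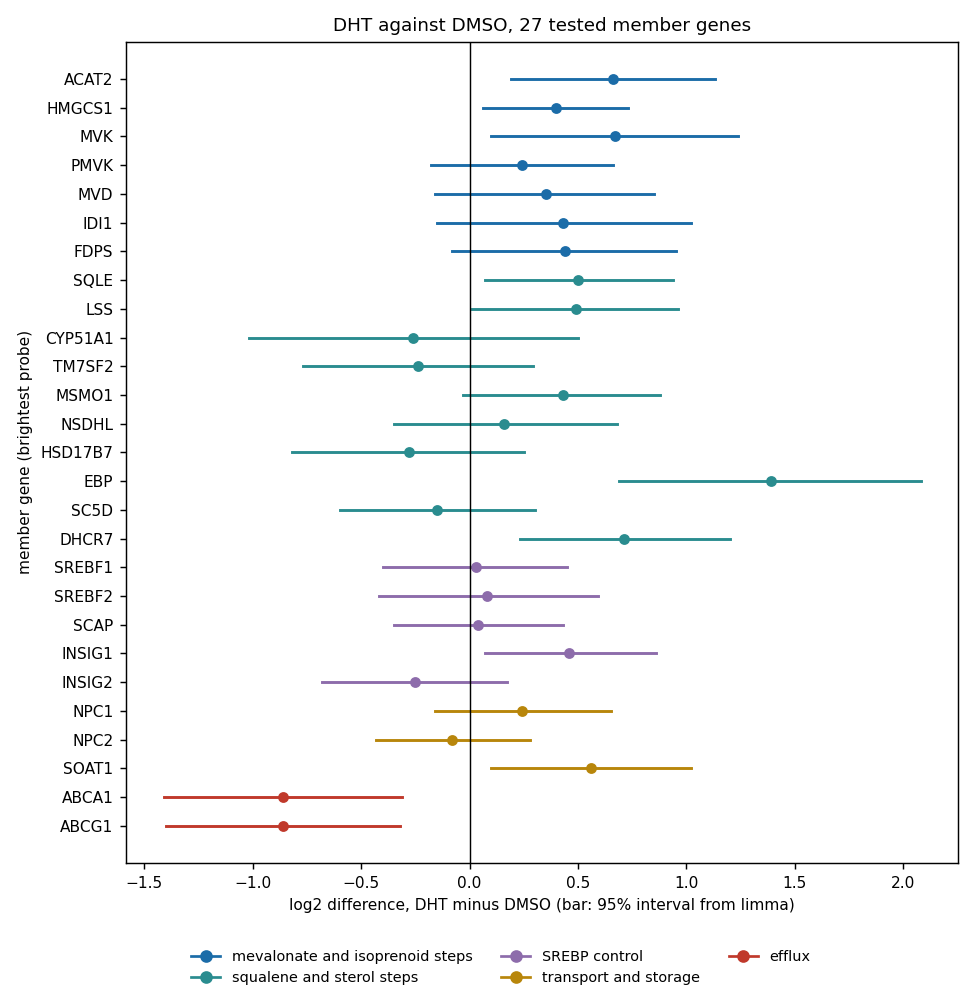
Log2 difference between DHT and DMSO (horizontal axis) for the 27 tested members, coloured by role, with points for limma's estimate and bars for its 95% interval, 3 arrays a group. EBP stands highest at 1.39 and ABCA1 and ABCG1 lowest at -0.86, and the 7 mevalonate genes all lie above 0.

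All 7 tested genes of the mevalonate and isoprenoid steps had a positive difference, from 0.24 to 0.67, with a median of 0.43. ACAT2, the cytosolic thiolase that joins acetyl-CoA units (not the cholesterol esterifying enzyme that shares this alias), read 12.31, 12.00 and 12.43 in DMSO and 12.62, 13.04 and 13.06 in DHT. The DHT arrays all lay above the DMSO arrays, a difference of 0.66 ± 0.23 (SE) on the log2 scale, or 1.58-fold (adjusted p = 0.368, limma). HMGCS1, which makes HMG-CoA, read 12.49, 12.47 and 12.30 in DMSO and 13.02, 12.78 and 12.66 in DHT. Its groups did not overlap, and the difference was 0.40 ± 0.16 (adjusted p = 0.502, limma). FDPS, which makes farnesyl diphosphate, read 9.75, 10.36 and 10.22 in DMSO and 10.39, 10.38 and 10.87 in DHT, so the groups were apart by a narrow margin between 10.36 and 10.38. Its difference of 0.44 was 0.25 without DMSO replicate 1 and 0.27 without DHT replicate 3. MVK, mevalonate kinase, read 7.94, 7.31 and 8.77 in DMSO and 8.55, 8.77 and 8.71 in DHT. MVK overlapped, with DMSO replicate 3 as high as the DHT arrays, and its difference of 0.67 ± 0.27 (adjusted p = 0.5, limma) was 0.32 without DMSO replicate 2 and 1.05 without DMSO replicate 3. The rest of the group, IDI1 (0.43), MVD (0.35) and PMVK (0.24), had overlapping arrays.

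The squalene and sterol steps were less uniform: 6 of 10 had a positive difference, with a median of 0.29 and a range from -0.28 to 1.39. EBP, the sterol isomerase that moves the double bond of the sterol ring, had the largest difference of any member. It read 10.12, 9.44 and 10.49 in DMSO and 11.04, 11.83 and 11.35 in DHT. Every DHT array was above every DMSO array, by 1.39 ± 0.33 on the log2 scale, or 2.62-fold with a 95% interval of 0.69 to 2.08 on the log2 scale (adjusted p = 0.123, limma). DHCR7, the reductase of the last step of one branch, read 10.35, 10.29 and 11.11 in DMSO and 11.12, 11.27 and 11.51 in DHT. Here DMSO replicate 3 almost touched the lowest DHT array, and the difference was 0.71 ± 0.23, or 1.64-fold (adjusted p = 0.332, limma). SQLE, which oxidizes squalene and is a rate-limiting step of the later pathway, read 11.81, 11.48 and 11.86 in DMSO and 12.39, 11.90 and 12.37 in DHT. LSS, the cyclase that makes lanosterol, read 10.80, 10.54 and 11.19 in DMSO and 11.33, 11.27 and 11.40 in DHT. MSMO1, which removes methyl groups from the ring, read 11.84, 11.73 and 11.79 in DMSO and 12.39, 12.01 and 12.25 in DHT. All 3 of these genes had separate arrays, with differences of 0.50 for SQLE, 0.49 for LSS and 0.43 for MSMO1. The remaining sterol enzymes had overlapping arrays, with NSDHL at 0.16, SC5D at -0.15, TM7SF2 at -0.24, CYP51A1 at -0.26 and HSD17B7 at -0.28. HSD17B7 has a pseudogene of near-identical sequence, and whether the probe also reads it was not tested. CYP51A1 also had the largest spread within groups of any tested member (0.52, pooled SD), so its interval is wide.

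Among the 5 control genes only INSIG1 had arrays that did not overlap. INSIG1, itself a target of SREBPs, read 13.01, 13.20 and 12.97 in DMSO and 13.60, 13.24 and 13.73 in DHT. The difference was 0.46 ± 0.19, or 1.38-fold, and DHT replicate 2 was close to the DMSO arrays (adjusted p = 0.499, limma). INSIG2, its homologue, read 11.77, 11.51 and 11.85 in DMSO and 11.37, 11.36 and 11.64 in DHT, overlapping with a difference of -0.25. The messengers of the regulators themselves were close to the DMSO level, with SREBF2 at 0.08, SCAP at 0.04 and SREBF1 at 0.03 on the log2 scale.

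Among the genes of transport and storage, SOAT1 read higher and the NPC genes did not separate. SOAT1, which esterifies cholesterol for storage, read 7.97, 8.29 and 8.36 in DMSO and 8.88, 8.51 and 8.91 in DHT, without overlap, by 0.56 ± 0.22 or 1.47-fold (adjusted p = 0.48, limma). NPC1, which exports cholesterol from lysosomes, read 10.53, 10.55 and 11.03 in DMSO and 10.86, 10.82 and 11.15 in DHT, a difference of 0.24, and its partner NPC2 stood at -0.08.

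Both exporters were lower with DHT on every array. ABCA1, which passes cholesterol to apolipoprotein A-I, read 9.09, 9.44 and 9.00 in DMSO and 8.34, 8.33 and 8.28 in DHT. ABCG1, which passes it to lipoprotein particles, read 11.13, 10.88 and 11.32 in DMSO and 10.18, 10.59 and 9.98 in DHT. Each had a difference of -0.86 ± 0.26 (0.551-fold), with adjusted p = 0.281 for ABCA1 and 0.263 for ABCG1 (limma).

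**Figure D2:**
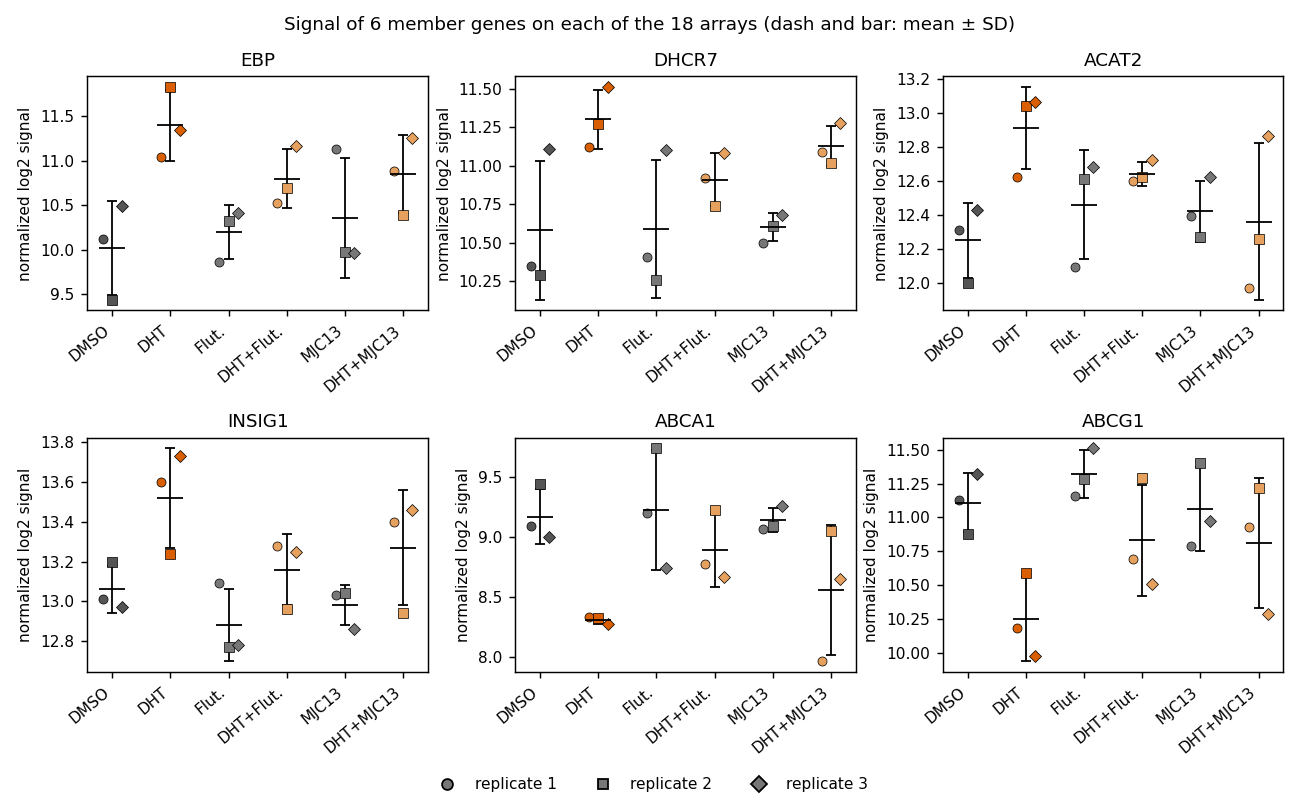
Log2 value on each of the 3 arrays (points, shaped by replicate number) of the 6 groups for 6 members, with a dash for the group mean and bars for ± SD. By mean, EBP, DHCR7, ACAT2 and INSIG1 are highest in DHT, ABCA1 and ABCG1 lowest in DHT, and the groups with DHT and an antagonist lie between DMSO and DHT for EBP.

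Other probes of the same genes gave a check within the arrays, and they did not all move alike. Second probes had differences of 0.77 for SQLE (adjusted p = 0.115, limma), 0.76 for DHCR7 (adjusted p = 0.222), 0.68 for LSS and 0.97 for INSIG1, each larger than that of the brightest probe. The second probe of ACAT2 had 0.21, and the other probes of MSMO1 had 0.35 and -0.17. For SREBF1, whose brightest probe stood at 0.03, the other probes had 0.32 and 0.51. The 4 other probes of ABCG1 had -0.67, 0.04, -0.12 and -0.14, so only 1 of them shared the size of the difference at the brightest probe. The ABCG1 probe at -0.67 had a mean signal of 9.31. The rest, in the order given, had 6.64, 6.51 and 6.50, near the filter at 6.31. Second probes of ACAT2 (6.47) and LSS (6.45) were also near it, so the differences of these dim probes carry little weight either way.

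How far did the antagonists alter these DHT differences? With flutamide present on both sides, the median DHT difference over the members was 0.17, and with MJC13 present 0.13. No member passed the adjusted test in either comparison, nor did any probe (0.0% of all tested in each, limma). With flutamide, 0 of 27 members had an unadjusted p under 0.05, against 2.47% of all probes higher and 2.17% lower, and the arrays did not overlap for 2 members, both higher, against 3.72% of all probes higher and 3.44% lower. These values are of the brightest probes. Of the members' other probes, the dimmest of MSMO1 (-0.70), the second of INSIG1 (0.88) and another of ABCG1 (-0.53) were past that threshold (adjusted p = 0.99, limma). The rest were not. That ABCG1 probe was near the filter on dim probes, with a mean signal of 6.51. With MJC13, 2 members were higher and 1 lower at an unadjusted p under 0.05, against 2.83% of all probes in each direction. These were LSS (0.54), DHCR7 (0.53) and ABCA1 (-0.59), each with adjusted p = 0.879 (limma). The second probes had -0.12 for LSS and 0.31 for DHCR7 with MJC13, neither past the unadjusted threshold. That of LSS was near the filter on dim probes, with a mean signal of 6.45. Arrays did not overlap for 4 members higher and 2 lower with MJC13, against 5.54% and 5.6%. The MJC13 and DHT + MJC13 arrays deviated together by replicate number, and with that number as a block 5 probes passed, none of them a member's.

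**Figure D3:**
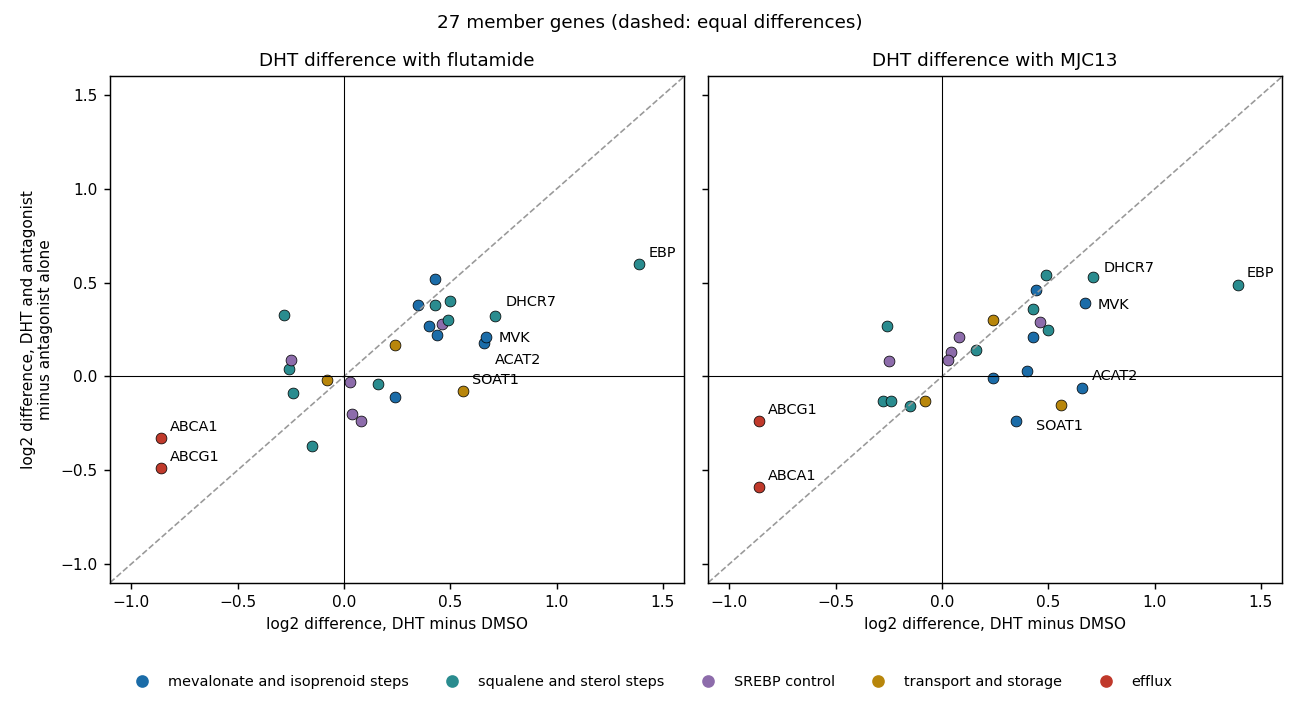
Log2 difference of DHT plus antagonist minus the antagonist alone (vertical axis) against DHT minus DMSO (horizontal axis) for 27 members, with flutamide on the left and MJC13 on the right, the dashed line marking equal differences. EBP lies at 1.39 on the horizontal axis and at 0.60 and 0.49 on the vertical axes, below the line in both.

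The enzymes kept positive medians with either antagonist, but that of the mevalonate genes was small with MJC13. Over the 17 tested synthesis enzymes the median DHT difference was 0.43 without antagonist, 0.27 with flutamide and 0.21 with MJC13. For the 7 mevalonate genes the median was 0.43, 0.22 and 0.03 in the same order. With MJC13, 4 of these 7 had a positive difference and 3 a negative one. For the 10 genes of the squalene and sterol steps the median was 0.29, 0.31 and 0.26. Among the mevalonate genes ACAT2 read 12.09, 12.61 and 12.68 with flutamide, 12.60, 12.62 and 12.72 with DHT + flutamide, 12.39, 12.27 and 12.62 with MJC13, and 11.97, 12.26 and 12.86 with DHT + MJC13. HMGCS1 read 11.97, 12.34 and 12.28 with flutamide, 12.50, 12.46 and 12.44 with DHT + flutamide, 12.28, 12.42 and 12.36 with MJC13, and 12.23, 12.41 and 12.52 with DHT + MJC13. In both genes the antagonist groups with DHT reached less far than DHT alone, with HMGCS1 separate from flutamide and ACAT2 overlapping in either pair. FDPS read 9.94, 9.93 and 10.25 with flutamide, 10.39, 9.84 and 10.56 with DHT + flutamide, 9.84, 9.81 and 10.24 with MJC13, and 10.44, 9.98 and 10.83 with DHT + MJC13. MVK read 7.93, 8.01 and 8.41 with flutamide, 8.29, 8.01 and 8.68 with DHT + flutamide, 7.84, 8.06 and 8.05 with MJC13, and 8.15, 8.43 and 8.56 with DHT + MJC13. For FDPS the second replicate of both DHT groups was the lowest, and MVK was separate only with MJC13.

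EBP read 9.86, 10.33 and 10.41 with flutamide and 10.53, 10.70 and 11.17 with DHT + flutamide, without overlap. With MJC13 it read 11.13, 9.98 and 9.97, and with DHT + MJC13 10.89, 10.39 and 11.26. MJC13 replicate 1 stood above the other 2 arrays of its group, so the pair overlapped and the DHT difference was 0.49, or 0.87 without that array, against 0.60 with flutamide. DHCR7 read 10.41, 10.26 and 11.10 with flutamide, 10.92, 10.74 and 11.08 with DHT + flutamide, 10.50, 10.61 and 10.68 with MJC13, and 11.09, 11.02 and 11.28 with DHT + MJC13. It was separate with MJC13 and not with flutamide, whose replicate 3 was high. SQLE read 11.51, 11.48 and 11.90 with flutamide, 12.25, 11.75 and 12.11 with DHT + flutamide, 11.61, 11.57 and 11.93 with MJC13, and 11.92, 11.71 and 12.23 with DHT + MJC13. LSS read 10.85, 10.27 and 11.16 with flutamide, 11.01, 11.13 and 11.06 with DHT + flutamide, 10.38, 11.00 and 10.67 with MJC13, and 11.43, 11.00 and 11.24 with DHT + MJC13. MSMO1 read 11.83, 11.20 and 11.64 with flutamide, 12.22, 11.60 and 11.98 with DHT + flutamide, 11.40, 12.17 and 11.84 with MJC13, and 12.09, 12.17 and 12.23 with DHT + MJC13. For SQLE and MSMO1 the arrays of each pair overlapped, and with MJC13 the LSS arrays with DHT lay above those without it by a margin lost in rounding at 11.00.

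INSIG1 read 13.09, 12.77 and 12.78 with flutamide, 13.28, 12.96 and 13.25 with DHT + flutamide, 13.03, 13.04 and 12.86 with MJC13, and 13.40, 12.94 and 13.46 with DHT + MJC13. Its DHT difference was 0.28 with flutamide and 0.29 with MJC13, and the second replicate was the lowest in each DHT group. INSIG2 read 11.64, 11.33 and 12.07 with flutamide, 11.48, 11.94 and 11.88 with DHT + flutamide, 11.47, 11.59 and 11.93 with MJC13, and 11.81, 11.68 and 11.73 with DHT + MJC13, overlapping throughout. NPC1 read 10.30, 10.42 and 10.94 with flutamide, 10.82, 10.66 and 10.67 with DHT + flutamide, 10.50, 10.39 and 10.64 with MJC13, and 10.89, 10.68 and 10.88 with DHT + MJC13, separate only with MJC13. SOAT1 read 8.53, 8.96 and 8.32 with flutamide, 8.87, 8.38 and 8.31 with DHT + flutamide, 8.04, 8.40 and 8.78 with MJC13, and 8.23, 8.23 and 8.32 with DHT + MJC13. SOAT1 had no positive difference with either antagonist (-0.08 with flutamide and -0.15 with MJC13), although it stood at 0.10 without flutamide replicate 2 and at 0.04 without MJC13 replicate 3.

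The exporters varied between replicates in several of the antagonist groups. ABCA1 read 9.20, 9.74 and 8.74 with flutamide, 8.78, 9.23 and 8.67 with DHT + flutamide, 9.07, 9.09 and 9.26 with MJC13, and 7.97, 9.05 and 8.65 with DHT + MJC13. ABCG1 read 11.16, 11.28 and 11.51 with flutamide, 10.69, 11.29 and 10.51 with DHT + flutamide, 10.79, 11.40 and 10.97 with MJC13, and 10.93, 11.22 and 10.29 with DHT + MJC13. Replicate 2 was the highest for both genes in both groups with DHT and an antagonist. It was also the highest for ABCA1 in DMSO (9.44) and flutamide, and for ABCG1 in DHT (10.59) and MJC13, but not in their other groups. In DHT + MJC13 replicate 2 had the lowest KLK2 of its group (7.95, 7.10 and 8.32), whereas in DHT + flutamide it did not (7.52, 7.64 and 8.51). The part of these arrays in the exporter values was not tested. The DHT difference was -0.33 for ABCA1 and -0.49 for ABCG1 with flutamide, and -0.59 and -0.24 with MJC13, where only ABCA1 had arrays that did not overlap. Without 1 array these values ran as far as -0.08 for ABCA1 with flutamide (without flutamide replicate 2) and 0.02 for ABCG1 with MJC13 (without DHT + MJC13 replicate 3).

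**Figure D4:**
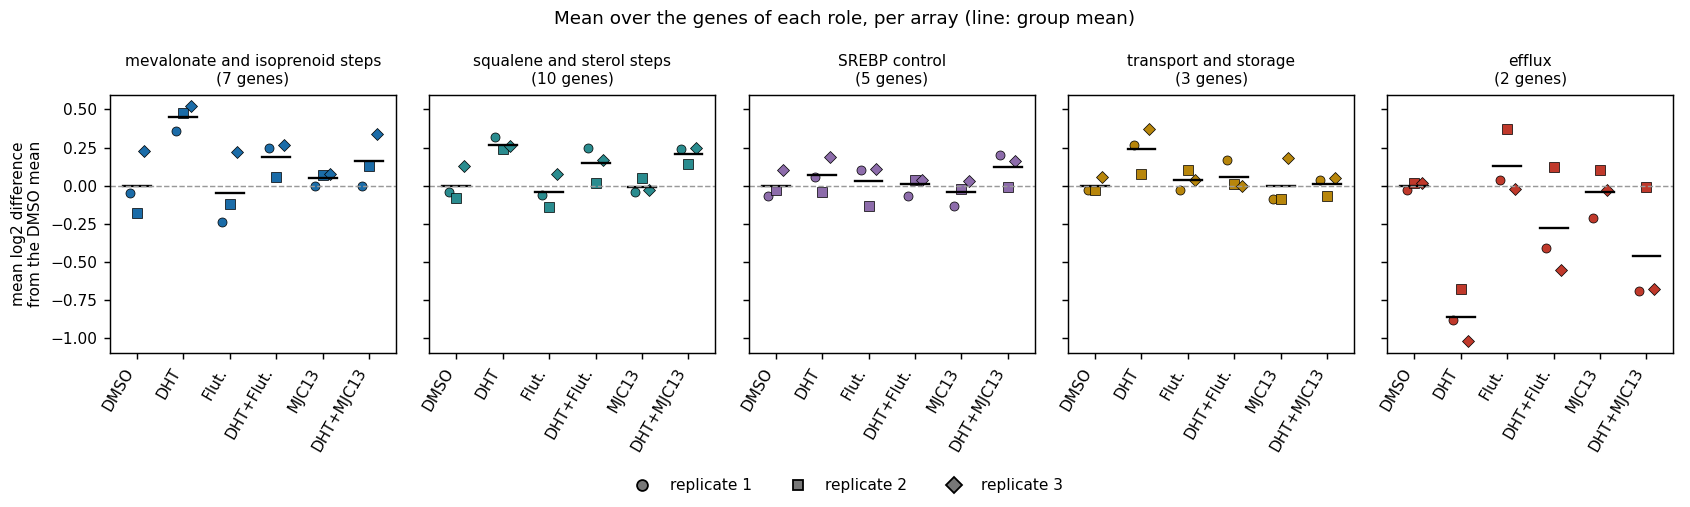
Mean over the tested members of a role on each array (points), as the log2 difference from the DMSO mean, for the 6 groups, with the group mean as a line and a marker shape for each replicate number. In DHT the 7 mevalonate genes read 0.36, 0.48 and 0.52 and the exporters -0.88, -0.68 and -1.02.

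Averaged over a role, the enzymes were highest and the exporters lowest in DHT. The mean of the 17 enzymes, as a log2 difference from DMSO, was 0.35 ± 0.01 (SD, n = 3) with DHT, 0.17 ± 0.12 with DHT + flutamide and 0.19 ± 0.09 with DHT + MJC13, whereas the DMSO arrays themselves spread by 0.15 (SD). All 3 DHT arrays lay above every array of the other 5 groups, the next being 0.29 in DHT + MJC13. For the exporters the means were -0.86 ± 0.17, -0.28 ± 0.35 and -0.46 ± 0.39 in the same order. Replicate 2 was the highest array in both combined groups, as it was in the DHT, flutamide and MJC13 groups. Without it the exporter means of the combined groups were -0.48 and -0.68. The SREBP control genes were within 0.12 of DMSO in each group mean. Their DHT mean of 0.07 joined INSIG1 at 0.46 and INSIG2 at -0.25, and it used the brightest probe of SREBF1 (0.03), whose other probes had 0.32 and 0.51. A mean near the DMSO level thus does not show that each control gene was unmoved.

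Setting DHT with antagonist against DHT itself drew a like picture. These comparisons share the DHT arrays, so they are not independent of the DHT difference. The DHT and DHT + flutamide arrays deviated together by replicate number (correlations of 0.39, 0.55 and 0.39). The fit given here does not use that number as a block. With flutamide, 20 of 27 members were lower than with DHT alone and the median was -0.21, against 14270 of 28334 probes and a median of -0.002 over all probes. At an unadjusted p under 0.05, 2 members were higher, ABCG1 and ABCA1 (0.58 each), and HMGCS1 was lower (-0.35), against 0.618% and 0.918% of all probes, each with an adjusted p of 1.0 from limma (0.0% of probes called). Without DHT + flutamide replicate 2, ABCG1 stood at 0.35. With MJC13, 18 of 27 members were lower and the median was -0.13, against 14233 of 28334 probes and a median of -0.001 over all probes. At the unadjusted threshold ABCG1 was higher (0.56), and HMGCS1 (-0.43), ACAT2 (-0.54) and SOAT1 (-0.51) were lower, against 1.31% and 1.78% of all probes (adjusted p = 1.0, limma, 0.0% called). Here ABCG1 stood at 0.36 without DHT + MJC13 replicate 2 and ACAT2 at -0.35 without DHT + MJC13 replicate 1.

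Tested as such, the change of the DHT difference by an antagonist did not pass for any member (0.0% of all probes, limma). KLK2 did not pass either, with changes of -1.46 by flutamide and -1.26 by MJC13. Its DHT difference was 2.23 without antagonist, 0.78 with flutamide and 0.98 with MJC13. The lowest members included EBP, at -0.79 ± 0.47 (SE) by flutamide and -0.90 ± 0.47 by MJC13, SOAT1 at -0.64 and -0.71, and ACAT2 at -0.48 and -0.72. For EBP the first was -0.50 without DMSO replicate 2 and the second -0.51 without MJC13 replicate 1. By MJC13, ACAT2 and SOAT1 had an unadjusted p under 0.05, against 2.15% of all probes lower (adjusted p = 0.999, limma), and by flutamide 0 members did, against 2.24%. Of the 11 members at an unadjusted p under 0.05 with DHT, 11 had a difference of smaller size with flutamide and 10 with MJC13, but choosing members by their DHT difference favours a smaller value elsewhere. The 95% intervals for these changes had half-widths from 0.48 to 1.08 on the log2 scale, with a median of 0.67. A change smaller than a gene's own half-width could not be told from no change. The intervals are unadjusted, so they do not give the size at which the adjusted test calls a change. By MJC13, EBP (-0.90) was past neither threshold, while ACAT2 (-0.72) and SOAT1 (-0.71) were past the unadjusted one and missed the adjusted test.

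Given alone, neither antagonist separated the cholesterol genes from DMSO in a fit without replicate number as a block. Same-numbered arrays deviated together for DMSO and flutamide (correlations of 0.17, 0.49 and 0.60) and for DMSO and MJC13 (0.28, 0.10 and 0.23). The median over members was -0.01 for each antagonist, and 0 members had an adjusted p or an unadjusted p under 0.05 (limma). Of all probes 0.0% were called, with 2.58% at the unadjusted threshold for flutamide and 2.24% for MJC13. The highest were SOAT1 at 0.40 with flutamide and EBP at 0.35 with MJC13, and each leaned on 1 array, since SOAT1 stood at 0.22 without flutamide replicate 2 and EBP at -0.04 without MJC13 replicate 1. Between the antagonists, 0 members passed at either threshold with or without DHT (0.0% of probes called, limma, and 5.22% at the unadjusted threshold without DHT and 1.41% with it). MVD, a decarboxylase of the mevalonate steps, was 0.43 higher with MJC13 than with flutamide (0.21 without flutamide replicate 2 and 0.70 without replicate 3), and SREBF2 was 0.42 higher with DHT + MJC13 than with DHT + flutamide. The difference of the 2 antagonist changes was centred on 0.01, with 0 members past either threshold (0.0% of probes called, limma, and 4.47% at the unadjusted one) and MVD the farthest at -0.61 (95% interval -1.33 to 0.10), or -0.40 without flutamide replicate 2. A missed threshold at this interval does not show that the antagonists act alike, and their doses were not equal.

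Related genes of cholesterol handling outside the 29, taken as a list of 32, had a probe for 25 and 23 tested. Against DMSO, DHT gave 14 positive and 9 negative differences with a median of 0.04, and 0 passed the adjusted test (limma), against 0.191% of all probes. At an unadjusted p under 0.05, 4 were higher, against 4.86% of all probes. ERLIN1, an endoplasmic reticulum protein that restrains SREBPs, read 7.87, 7.87 and 7.60 in DMSO and 8.27, 8.29 and 8.32 in DHT, without overlap (0.51, adjusted p = 0.248, limma). The others were TMEM97, which binds NPC1 (0.58), LBR, a sterol reductase of the nuclear envelope (0.72), and ACLY, which supplies cytosolic acetyl-CoA (0.34).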

How the data were processed

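LNCaP cells in 6 treatment groups (3 arrays each, 18 in all) were hybridised to Illumina bead arrays. The authors read the scans in GenomeStudio, subtracted background and quantile-normalized with lumi, and deposited the values on the log2 scale for 47223 probes, which were used unchanged. A second deposited table had 36 value columns whose array codes were not tied to samples and was not used. Probes above the 40th percentile of mean signal (6.31) were kept, giving 28334. A 6-group model was fitted with limma 3.58.1 in R 4.3.3 over all of them, and p-values were adjusted by Benjamini-Hochberg with a threshold of 0.05. Tests were also run on simulated data. Each gene was represented by its brightest probe with 1 symbol (30111 probes had 1 symbol, 8 several and 17104 none). Precision is limited by the number of arrays. Replicate numbers came from sample titles, and descriptions give another number for 11 of 18 arrays. Same-numbered arrays deviated together in 5 of 15 pairs of groups, not in DMSO and DHT. Alternatives tried were the filter, moderation, scaling, probe choice, replicate block, threshold, the arrays fitted and leaving out each array. The genes named with values on every array are those whose DHT and DMSO arrays do not overlap, those called and, in each role, the 2 with the lowest p. Members and lists were chosen with earlier results of these data known. Promoters were from RefSeq tables.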

Additional observations from a re-analysis of the deposited data

How the results depend on the processing

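The 15 members described array by array kept the direction of their DHT difference in 27 of 27 alternatives. Under all alternatives but one, 0 members passed the adjusted test in DHT against DMSO. With the replicate number of the titles as a block, which the DMSO and DHT arrays do not bear out (correlations of 0.018, 0.073 and 0.095 between same-numbered arrays), 2 members passed, EBP (adjusted p = 0.0381, limma) and DHCR7 (adjusted p = 0.046), and probes called numbered 469 against 54. That count was 15 at an adjusted p under 0.01, 33 with no filter on dim probes, 35 with a filter at the 60th percentile and 87 with only the compared groups fitted. The median over members was 0.36 with the description number as a block. With the title block, 4 probes were called for DHT with flutamide against flutamide, 5 for DHT with MJC13 against MJC13 and 1 for DHT with MJC13 against DHT, where no filter also gave 1. The median change by flutamide was -0.20 with the mean of all probes of a gene.

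Leaving out each array in turn, the count for DHT against DMSO ran from 7 (without DMSO replicate 1) to 95 (without DHT + MJC13 replicate 2), with 0 members called each time and a median from 0.17 to 0.34. The median ran from 0.06 to 0.28 for DHT with flutamide against flutamide, 0.06 to 0.14 for DHT with MJC13 against MJC13 (0 to 2 probes called), -0.21 to -0.17 for DHT with flutamide against DHT (0 to 1), -0.16 to -0.07 for DHT with MJC13 against DHT (0 to 2), -0.10 to 0.04 for flutamide against DMSO, -0.03 to 0.03 for MJC13 against DMSO, -0.18 to 0 for the change by flutamide, -0.10 to -0.02 for the change by MJC13 (0 to 1) and -0.01 to 0.12 for their difference. The cause of these shifts was not tested. With 3 arrays a group, 95% intervals of DHT against DMSO had half-widths from 0.34 to 0.76 over the members.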
